A study of Rattus norvegicus with 6 samples.

Results

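The genes described here are 36 enzymes, transporters and regulators of glycolysis, gluconeogenesis and glycogen metabolism, measured in the livers of rats given bromodichloromethane or its vehicle. They stand among 28995 features tested, a feature being a gene or, where no gene symbol was matched, a transcript accession. Members were found by matching the accession of each array probe to the RefSeq transcripts of the listed symbols. Of the 36 genes, 35 matched by their current symbol and 1, Pcx, by an older one, since RefSeq now names it Pc. All 36 were well above background on all 6 arrays, so the filter on dim probes removed no member.

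Liver RNA came from 6 male Sprague-Dawley rats, Crl:CD(SD), bought at 5 weeks of age and kept on a basal diet with tap water freely available. Of these, 3 received bromodichloromethane at 200 mg/kg/day and 3 received corn oil, the vehicle, so both groups share the oil. Each rat gave 1 array, a 1-colour Agilent microarray in which Cy3 fluorescence of a spot measures the labelled RNA bound to it. The labels put the measurement at 28 days, while the treatment text speaks of 9 weeks of dosing, and they do not say whether the rats were fasted before the liver was taken. Bromodichloromethane is a by-product of chlorinating drinking water.

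The liver takes up glucose through a transporter that runs in both directions and traps it inside the cell by adding a phosphate. From there the sugar is stored as glycogen, broken down to pyruvate, or, in fasting, made afresh from lactate and amino acids and released. Hepatocytes use liver forms of several of these enzymes, whereas leukocytes and many other cells use other forms encoded by separate genes.

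Processed signals had a 75th percentile of 747 to 825 fluorescence units on the treated arrays and of 670 to 758 on the corn oil arrays, and no probe that was not a control was saturated. The share of probes well above background ran from 65.3% to 66.9% on treated arrays and from 61.3% to 63.9% on corn oil arrays. Treated replicate 1 and all 3 corn oil arrays lay on slide 1, and treated replicates 2 and 3 on slide 2. The livers carried hepatocyte transcripts in every animal. The summed normalised signal of 10 hepatocyte markers, among them Alb and Ttr, ran from 3638 to 4080 in treated livers. In corn oil livers it ran from 4230 to 4720. By the test described below 2 markers were lower, Serpina1 and Cps1, and none was higher, where 3.41% of all features were lower. Apoa1 and Hnf4a, with log2 fold changes of 0.10 and 0.19, stood above 0 with overlapping groups, and the other markers below 0. In whole liver RNA, fewer cells of a type and less RNA per cell cannot be told apart.

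Treated livers had higher signals of Hk3, Pfkp and Aldoa, and lower signals of Pfkfb1, Ppp1r3b, Gckr and Slc37a4. Normalised signal here is the background-subtracted fluorescence divided by the 75th percentile of its array, so a value of 1 is the level of that percentile. Signals of different probes are not compared with each other, because probes bind with different strength. Groups were compared by limma on the log2 scale with Benjamini-Hochberg adjustment over all 28995 features and a threshold of 0.05, and SE is limma's moderated error of that difference. Of the 36 genes, 3 passed with higher signal (8.33%, against 5.96% of all features) and 4 with lower signal (11.1%, against 3.41% of all features), so 19.4% passed in either direction against 9.36% of all features. The other 29 did not pass. The 36 genes were chosen with earlier results of these data known. Their shares beside those of all features, here and below, are therefore descriptions and not tests.

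The values of the treated and corn oil animals did not overlap for 21 of the 36 genes, or 58.3%, against 34.4% of all features. Of the 21, 9 were higher (18.4% of all features were) and 12 were lower (16% of all features were). The median log2 fold change of the 36 was -0.10, beside 0.0014 over all features, and the fold changes ran from -1.18 to 1.16. The median size of the change, without its sign, was 0.31 for the 36 genes and 0.20 for all features. The median SD on the log2 scale was 0.15 in treated and 0.12 in corn oil animals for the 36 genes, and 0.15 and 0.14 for all features. Scaling the arrays by their spiked-in control transcripts moved the median of all features to 0.49, so a smaller fall is one measured against the other transcripts only. With that scaling 15 of the 36 genes passed as higher and 1 as lower, where 44.1% of all features passed in either direction. Of all calls, 97.6% were then higher, against 63.6% with the 75th percentile. Median centring gave 5 higher and 2 lower, where 10.2% of all features passed and 74.2% of all calls were higher. Without the filter on dim probes none of the 36 passed by limma, where 1.33% of all features passed. With slide as a fixed block, which rests on treated replicate 1 alone, none passed either, where 1.21% of all features passed. At an unadjusted p below 0.05, 6 of the 36 were higher and 9 lower in the first of these fits, against 9.6% and 21.9% of all 45862 features tested there. In the fit with slide, 6 were higher and 8 lower, against 11.8% and 9.06% of all features. On slide 1 alone none passed either, with 6 higher and 6 lower at that unadjusted p, against 10.3% and 7.68% of all features.

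**Figure D1:**
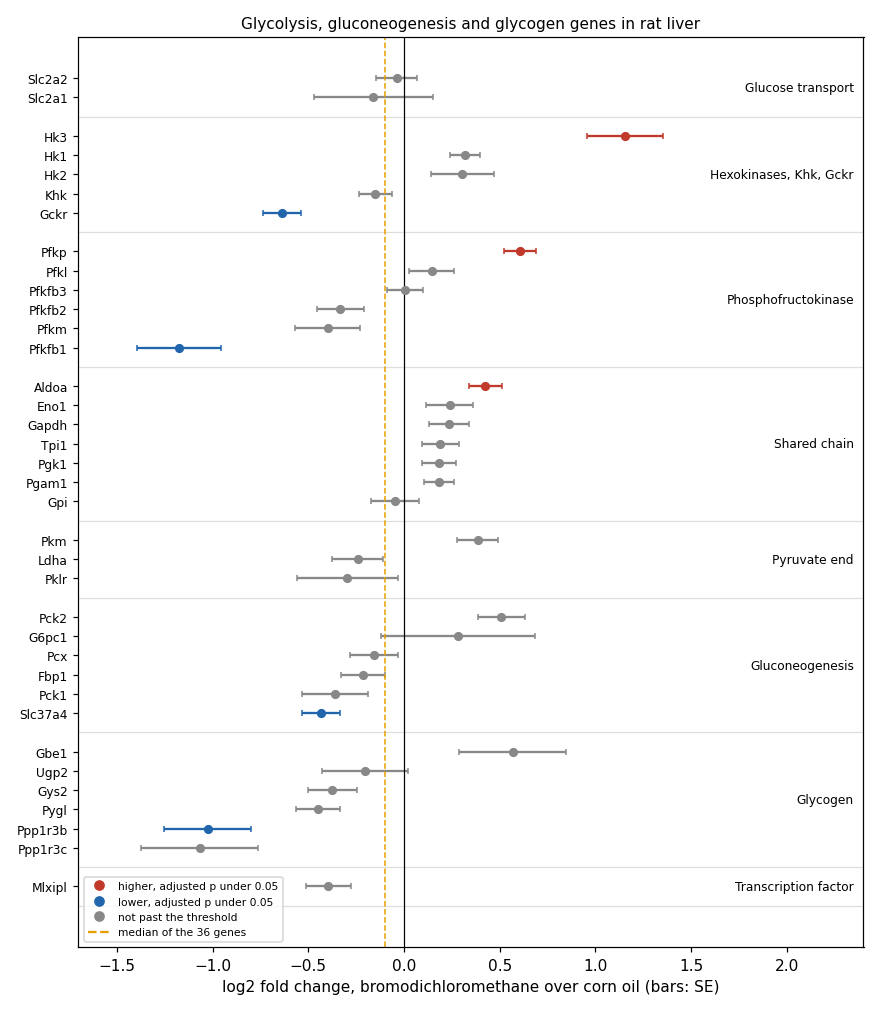
Log2 fold change, bromodichloromethane over corn oil, of the 36 genes, grouped by role down the page; points are limma estimates from 3 animals a group and bars their SE. Red points (Hk3, Pfkp, Aldoa) passed as higher and blue points (Gckr, Pfkfb1, Slc37a4, Ppp1r3b) as lower, and the dashed line is the median of the 36 genes at -0.10.

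Among the enzymes that trap sugar, Hk3 was the member with the highest fold change. It encodes hexokinase 3, a high-affinity enzyme best known from myeloid blood cells. Its normalised signal was 1.61, 1.67 and 1.03 in treated replicates 1, 2 and 3, against 0.661, 0.654 and 0.582 in the corn oil replicates. All treated values lay above all corn oil values, and treated replicate 3 was the lowest of its group. Mean signal was 1.44 ± 0.352 in treated livers and 0.632 ± 0.0438 in corn oil livers (SD, n = 3 each). The gene was 2.23-fold higher, a log2 fold change of 1.16 with SE 0.20 (adjusted p = 0.025), and stood at 1.35 on slide 1 alone. The call held without treated replicate 3 (adjusted p = 0.015) and was lost without each of the other 5 animals (adjusted p from 0.058 to 0.087).

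Hk1, the hexokinase of brain and red cells, had signals of 0.654, 0.689 and 0.664 in treated livers, against 0.537, 0.544 and 0.528 in corn oil livers. The groups did not overlap, but the log2 fold change of 0.32 (SE 0.08) did not pass by limma (adjusted p = 0.055). It passed with median centring, a stricter filter, a common floor and spike-in scaling (adjusted p = 0.038, 0.049, 0.036 and 0.010). Hk2, the muscle and fat form, had signals from 0.0729 to 0.111 in treated livers and from 0.0716 to 0.0792 in corn oil livers, which overlap (log2 fold change 0.31, SE 0.17).

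The summed signal of 10 macrophage markers ran from 152 to 170 in treated livers and from 141 to 179 in corn oil livers, which overlap. The largest part of that sum was Clec4f, with means of 74.9 in treated and 88.1 in corn oil livers. Of the 10, 2 were higher and none was lower, against 5.96% and 3.41% of all features. The 2 markers were Mmp12, the macrophage elastase, and Gpnmb, a glycoprotein of lipid-laden macrophages. Mmp12 had signals of 0.728, 0.921 and 0.440 in treated livers, against 0.0221, 0.0474 and 0.0307 in corn oil livers. In the latter it was well above background on only 2 of 3 arrays, so it entered the test through the treated group alone. Gpnmb had signals of 12.3, 9.48 and 5.20 in treated livers, against 1.85, 3.03 and 2.98 in corn oil livers. The Kupffer cell marker Clec4f was at -0.24 (SE 0.21) and the receptor gene Csf1r, lower without overlap, at -0.15 (SE 0.08), and neither passed. Cd68, Lyz2 and Cd5l, at 0.31, 0.36 and 0.36, were higher without overlap and did not pass. Cd163, Adgre1 and Marco, at 0.14, -0.12 and 0.17, had overlapping groups. T and NK cell markers, 7 in number, had summed signals from 3.35 to 3.86 in treated and from 2.78 to 3.08 in corn oil livers. Of these, Cd3e and Cd2 were well above background on 3 treated arrays and 0 corn oil arrays, so they entered the test through the treated group alone, and none of the other markers passed. Neutrophil markers had summed signals from 2.09 to 2.54 in treated and from 1.47 to 1.89 in corn oil livers over the 4 that were measured, of which none passed, while Elane and Ngp were not well above background. The summed signal of 5 bile duct markers ran from 2.58 to 3.74 in treated livers and from 1.75 to 1.91 in corn oil livers, with Epcam higher. Epcam, with means of 2.27 in treated and 1.05 in corn oil livers, made up most of these sums. Krt7, Krt19, Spp1 and Cftr were at 0.12, 0.16, 0.22 and -0.03 with overlapping groups. The summed signal of 4 muscle markers ran from 0.328 to 0.419 in treated livers and from 0.334 to 0.342 in corn oil livers. Of these Acta1 was higher, although it was well above background on only 2 of 3 corn oil arrays. It entered the test through the treated group alone, as did Tnnt3, at 0.85, which did not pass. Ckm and Mylpf, at -0.39 and -0.10, had overlapping groups. The part of these cells in the values of Hk3, Hk1, Pkm, Pfkp and Aldoa was not tested.

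Gckr, which encodes a regulatory protein of sugar phosphorylation in hepatocytes, had signals of 69.9, 70.4 and 68.7 in treated livers, against 122, 101 and 104 in corn oil livers. The treated animals lay close together and all below the corn oil animals. Mean signal was 69.7 ± 0.888 in treated livers and 109 ± 11.2 in corn oil livers (SD, n = 3 each), and the gene was 1.56-fold lower, a log2 fold change of -0.64 with SE 0.10 (adjusted p = 0.021). On slide 1 alone it stood at -0.63. The call held without corn oil replicate 1 (adjusted p = 0.046) and was lost without each of the other 5 animals (adjusted p from 0.053 to 0.081). The 3 measured endothelial markers summed to between 37.2 and 39.8 in treated livers and between 44.4 and 47.3 in corn oil livers. All 3 were below 0 on the log2 scale, and Lyve1, a receptor of sinusoidal and lymphatic endothelium, passed as lower (-0.56, SE 0.11, adjusted p = 0.030). The part of the lower hepatocyte and endothelial marker sums in the values of Gckr, Pfkfb1, Ppp1r3b and Slc37a4 was not tested. With spike-in scaling Gckr was at -0.15 and did not pass (adjusted p = 0.43). Khk, the fructose kinase, had signals of 175, 187 and 185 in treated livers, against 204, 192 and 212 in corn oil livers, a small difference that did not pass (log2 fold change -0.15, SE 0.08, adjusted p = 0.31).

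The glucose transporters did not differ between the groups beyond their spread. Slc2a2, the liver transporter, had signals from 25.4 to 27.9 in treated livers and from 24.8 to 30.3 in corn oil livers (log2 fold change -0.04, SE 0.11), and its 3 probes differed in sign. Slc2a1, found in red cells and many other cells, had 1.64, 0.843 and 0.812 in treated livers, against 1.43, 1.19 and 0.923 in corn oil livers. Treated replicate 1 was the highest of all 6 animals and the other two treated animals the lowest (log2 fold change -0.16, SE 0.31), and on slide 1 alone the value was 0.50. Red cell markers, 5 in number, summed to between 350 and 502 in treated livers and between 525 and 780 in corn oil livers, none past the threshold, and their part in the values of Slc2a1, Hk1 and Pklr was not tested.

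Phosphofructokinase, which commits sugar to glycolysis, is encoded by the genes Pfkl (liver), Pfkm (muscle) and Pfkp (platelet). Pfkp had signals of 2.43, 2.48 and 2.23 in treated livers, against 1.59, 1.52 and 1.58 in corn oil livers. The gap between the groups was wide beside the spread in either group. Mean signal was 2.38 ± 0.131 in treated livers and 1.56 ± 0.0349 in corn oil livers (SD, n = 3 each), and the gene was 1.52-fold higher, a log2 fold change of 0.61 with SE 0.08 (adjusted p = 0.017). It stood at 0.63 on slide 1 alone. Its call held in 4 of 6 fits, each without 1 animal, and was lost without treated replicate 2 and without corn oil replicate 2 (adjusted p = 0.073 and 0.065).

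Pfkm was lower in each treated animal, at 0.271, 0.195 and 0.300, against 0.346, 0.323 and 0.323 in corn oil livers, but did not pass (log2 fold change -0.40, SE 0.17, adjusted p = 0.19). Pfkl had signals from 0.705 to 0.877 in treated livers and from 0.647 to 0.762 in corn oil livers, which overlap (log2 fold change 0.15, SE 0.12), and its 3 probes ran from -0.03 to 0.15.

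The bifunctional enzymes make and remove the allosteric activator of phosphofructokinase. Pfkfb1, the liver form, had the largest fall of the 36 genes. Its signals were 15.1, 11.0 and 9.85 in treated livers, against 29.2, 20.8 and 31.0 in corn oil livers. All treated animals lay below all corn oil animals, with corn oil replicate 2 the nearest to them. Mean signal was 12.0 ± 2.74 in treated livers and 27.0 ± 5.43 in corn oil livers (SD, n = 3 each), and the gene was 2.26-fold lower, a log2 fold change of -1.18 with SE 0.22 (adjusted p = 0.029). A second probe for the gene gave -1.15, and slide 1 alone gave -0.82. The call held without treated replicate 1 (adjusted p = 0.039) and was lost without each of the other 5 animals (adjusted p from 0.053 to 0.10). With spike-in scaling it was at -0.69 and passed (adjusted p = 0.028).

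Pfkfb2, the heart form, had low signals of 0.0868, 0.106 and 0.0847 in treated livers, against 0.126, 0.116 and 0.107 in corn oil livers, and did not pass (log2 fold change -0.33, SE 0.12, adjusted p = 0.15). Pfkfb3, the inducible form, was at 0.01 (SE 0.09), with signals from 0.109 to 0.122 in treated and from 0.108 to 0.123 in corn oil livers.

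**Figure D2:**
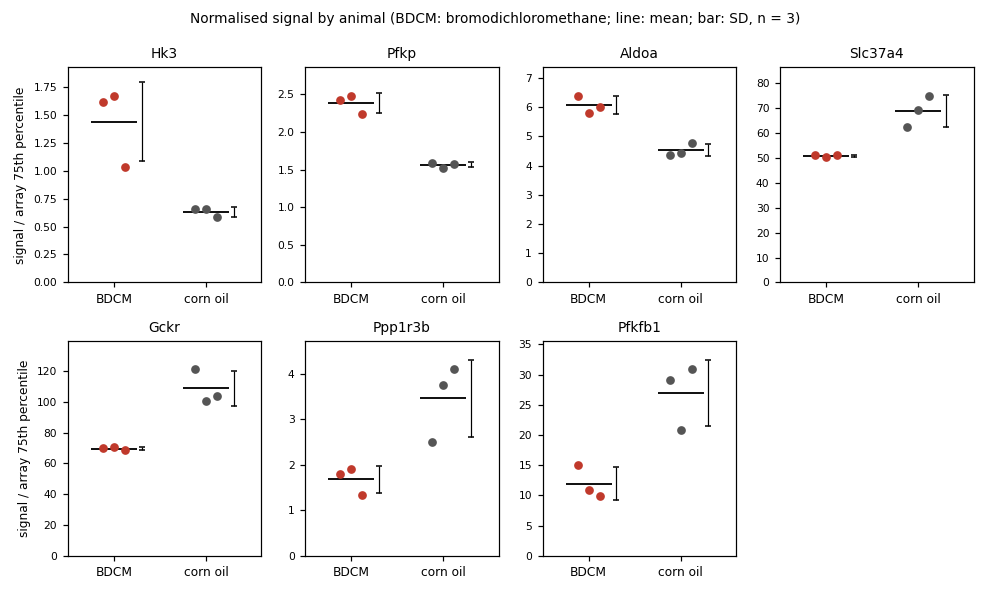
Normalised signal by animal (signal divided by the 75th percentile of the array, linear axis from 0) of the 7 genes past the threshold, with bromodichloromethane animals left in red and corn oil animals right in grey; lines are means and bars SD (n = 3 each). In each panel the groups do not overlap, and the treated animals are above the corn oil animals for Hk3, Pfkp and Aldoa and below them for Slc37a4, Gckr, Ppp1r3b and Pfkfb1.

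The shared chain holds enzymes that work in both glycolysis and gluconeogenesis. Its 7 members had a median log2 fold change of 0.19, and 6 were above 0, as were 14553 of all 28995 features. Of the 7, 1 passed as higher, against 5.96% of all features. That was Aldoa, the aldolase of muscle and most tissues other than liver. It had signals of 6.40, 5.82 and 6.02 in treated livers, against 4.37, 4.45 and 4.78 in corn oil livers. Both groups were tight and did not overlap. Mean signal was 6.08 ± 0.298 in treated livers and 4.53 ± 0.215 in corn oil livers (SD, n = 3 each), and the gene was 1.34-fold higher, a log2 fold change of 0.42 with SE 0.09 (adjusted p = 0.037). It stood at 0.50 on slide 1 alone, and its call was lost without each of the 6 animals in turn (adjusted p from 0.070 to 0.11).

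The other members of the chain differed by at most 0.24 on the log2 scale and did not pass. Pgk1, a kinase that yields ATP, had signals of 109.1, 115.2 and 119.6 in treated livers, against 100.5, 95.5 and 107.2 in corn oil livers. Pgam1, the mutase after it, had 82.2, 84.0 and 86.8 in treated livers, against 73.0, 75.4 and 74.6 in corn oil livers. Tpi1, the triose isomerase, had 39.9, 43.2 and 39.2 in treated livers, against 37.8, 32.7 and 36.9 in corn oil livers. In these 3 genes every treated value exceeded every corn oil value, by a small margin (log2 fold changes 0.18, 0.18 and 0.19, adjusted p = 0.25, 0.19 and 0.27). Gapdh and Eno1 both stood at 0.24 (SE 0.10 and 0.12) with overlapping groups, and Gpi, the hexose isomerase, at -0.05 (SE 0.13). All 5 probes of Gapdh had a fold change above 0, from 0.09 to 0.24.

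At the pyruvate end, Pkm encodes the pyruvate kinase of muscle and of most cells other than hepatocytes, and Pklr that of liver and red cells. Pkm had signals of 1.08, 0.964 and 0.892 in treated livers, against 0.691, 0.771 and 0.780 in corn oil livers. The groups did not overlap, and the log2 fold change of 0.38 (SE 0.11) did not pass (adjusted p = 0.077), but passed with normexp background correction and with spike-in scaling (adjusted p = 0.035 and 0.0064). Pklr had 5.18, 6.32 and 6.86 in treated livers, against 5.62, 6.70 and 11.0 in corn oil livers, with corn oil replicate 3 well above the other five animals (log2 fold change -0.30, SE 0.26). Without corn oil replicate 3 Pklr was at -0.01. Ldha, a lactate dehydrogenase subunit, had 314, 397 and 422 in treated livers, against 471, 424 and 436 in corn oil livers (log2 fold change -0.24, SE 0.13, adjusted p = 0.29).

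Mlxipl, the glucose-sensing transcription factor known as ChREBP, had signals of 1.67, 1.93 and 2.01 in treated livers, against 2.22, 2.46 and 2.70 in corn oil livers. Every treated animal was below every corn oil animal, and the log2 fold change of -0.39 (SE 0.12) did not pass (adjusted p = 0.091) except with normexp (adjusted p = 0.036).

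Of the 6 gluconeogenic genes 1 passed, with lower signal, as did 3.41% of all features, and 5 did not pass. That gene was Slc37a4, whose product carries glucose 6-phosphate into the endoplasmic reticulum. It had signals of 51.2, 50.5 and 51.0 in treated livers, against 62.3, 69.4 and 75.2 in corn oil livers. The treated animals were nearly equal and all below the corn oil animals. Mean signal was 50.9 ± 0.357 in treated livers and 68.97 ± 6.44 in corn oil livers (SD, n = 3 each), and the gene was 1.35-fold lower, a log2 fold change of -0.43 with SE 0.10 (adjusted p = 0.046), though its direction turned with spike-in scaling, to 0.05. It stood at -0.43 on slide 1 alone, and its second probe at -0.41. The call was lost without each of the 6 animals in turn (adjusted p from 0.055 to 0.14), and also with median centring, the mean over probes and a random slide block (adjusted p = 0.083, 0.054 and 0.054). G6pc1, the phosphatase that acts on the glucose 6-phosphate so delivered, had 55.3, 98.0 and 87.9 in treated livers, against 36.5, 73.8 and 98.6 in corn oil livers. Its spread between animals was among the widest of the members (log2 fold change 0.28, SE 0.40), and on slide 1 alone it was at -0.22.

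Pck1 and Pck2 encode the cytosolic and the mitochondrial phosphoenolpyruvate carboxykinase, and their values differed in sign. Pck2 had signals of 5.95, 5.87 and 7.57 in treated livers, against 4.40, 4.42 and 4.72 in corn oil livers. The groups did not overlap, its 3 probes were all above 0, and the log2 fold change of 0.51 (SE 0.12) narrowly did not pass (adjusted p = 0.055). It passed with normexp, median centring, the stricter filter, spike-in scaling and the trend and robust options (adjusted p from 0.0071 to 0.048). Pck1 had 104, 112 and 86.7 in treated livers, against 148, 140 and 103 in corn oil livers, which overlap (log2 fold change -0.36, SE 0.17, adjusted p = 0.24). Pcx, the pyruvate carboxylase, and Fbp1, the fructose bisphosphatase, were at -0.16 (SE 0.12) and -0.21 (SE 0.11) with overlapping groups.

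Of the 6 glycogen genes 5 had a log2 fold change below 0, 4 did so without overlap, and 1 passed as lower. Over all 28995 features, 14442 were below 0, 16% were lower without overlap and 3.41% passed as lower. Ppp1r3b, the subunit that brings protein phosphatase to glycogen in liver and so favours its synthesis, had signals of 1.79, 1.90 and 1.35 in treated livers, against 2.51, 3.76 and 4.11 in corn oil livers. Treated replicate 3 was the lowest animal and corn oil replicate 1 the corn oil animal nearest to the treated group. Mean signal was 1.68 ± 0.295 in treated livers and 3.46 ± 0.841 in corn oil livers (SD, n = 3 each), and the gene was 2.04-fold lower, a log2 fold change of -1.03 with SE 0.23 (adjusted p = 0.044). Its other probes gave -0.83 and -0.98, and slide 1 alone gave -0.92. The call held without corn oil replicate 1 (adjusted p = 0.039), was lost without each of the other 5 animals (adjusted p from 0.089 to 0.13), and ended with median centring, a random slide block and spike-in scaling (adjusted p = 0.052, 0.054 and 0.10).

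Ppp1r3c, a second glycogen-targeting subunit, had signals of 11.1, 16.3 and 19.2 in treated livers, against 35.2, 42.2 and 21.6 in corn oil livers. The groups did not overlap, with treated replicate 3 close to corn oil replicate 3. The log2 fold change was -1.07 (SE 0.31, adjusted p = 0.083), its 3 probes ran from -1.18 to -1.07, and slide 1 alone gave -1.51. Without each of the 6 animals in turn it did not pass (adjusted p from 0.056 to 0.20).

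Glycogen synthase and phosphorylase, which build and break the polymer, both had lower values in every treated animal and did not pass. Gys2, the liver synthase, had 44.0, 42.3 and 49.4 in treated livers, against 55.6, 52.6 and 68.4 in corn oil livers (log2 fold change -0.37, SE 0.13, adjusted p = 0.13). Pygl, the liver phosphorylase, had 7.67, 7.37 and 7.50 in treated livers, against 9.30, 9.78 and 11.9 in corn oil livers (log2 fold change -0.45, SE 0.11). It did not pass (adjusted p = 0.063), but did so with normexp and with the trend and robust options (adjusted p = 0.038 and 0.032). Gbe1, the branching enzyme, had the opposite sign at 0.57 (SE 0.28, adjusted p = 0.25), with signals from 1.91 to 3.18 in treated and from 1.17 to 2.19 in corn oil livers. Ugp2, which makes the activated glucose, was at -0.20 (SE 0.23).

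The array held 77 probes for the 36 genes, of which 73 were well above background on all arrays of a group and 4 were not on any array. For 26 genes with more than 1 such probe, the probes of 24 shared their sign and those of Pfkl and Slc2a2 did not. Hk3, Gckr, Pfkp and Aldoa were measured by 1 probe each.

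**Figure D3:**
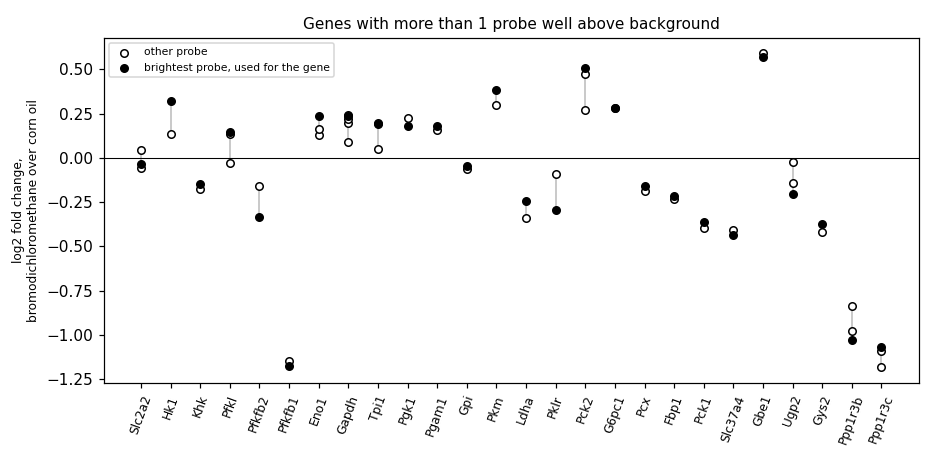
Log2 fold change, bromodichloromethane over corn oil, of every probe well above background, for the 26 genes with more than 1 such probe; the filled point is the brightest probe, which stands for the gene. Probes of Pfkfb1, Ppp1r3b, Ppp1r3c, Slc37a4 and Pck2 lie on one side of 0, while those of Pfkl and Slc2a2 lie on both.

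Promoters of 5 of the 7 genes past the threshold are shown, since these members passed in the same comparison. That of Aldoa, which holds none of the motifs searched, is not printed, and the table used has none for Ppp1r3b. The sequences are the 250 bases before the gene start in RefSeq annotation of GRCr8, a later build than the rn4 of the array design, written 5′ to 3′. Capitals mark matches on either strand to the letters CACGTG (E-box), TGACG (core of the cAMP response element), TGTTTAC (core bound by FOXO and FOXA factors), GGGCGG (GC box), TGACNNNGC (core of the antioxidant response element), GAGGAAGT (PU.1 site) or CCAAT. The first 3 sequences belong to genes with lower signal in treated livers and the last 2 to genes with higher signal.
Gckr, chr6:30795628-30795877, minus strand: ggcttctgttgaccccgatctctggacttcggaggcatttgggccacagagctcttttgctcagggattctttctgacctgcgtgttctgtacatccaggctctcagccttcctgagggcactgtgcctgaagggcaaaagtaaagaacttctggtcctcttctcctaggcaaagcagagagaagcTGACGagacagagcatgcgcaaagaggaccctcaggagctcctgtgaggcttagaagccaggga
Slc37a4, chr8:53619775-53620024, plus strand: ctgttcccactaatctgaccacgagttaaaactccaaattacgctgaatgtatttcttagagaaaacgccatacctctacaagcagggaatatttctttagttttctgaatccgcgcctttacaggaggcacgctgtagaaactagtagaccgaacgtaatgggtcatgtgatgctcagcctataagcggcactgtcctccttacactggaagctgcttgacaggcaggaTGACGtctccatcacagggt
Pfkfb1, chrX:22941926-22942175, plus strand: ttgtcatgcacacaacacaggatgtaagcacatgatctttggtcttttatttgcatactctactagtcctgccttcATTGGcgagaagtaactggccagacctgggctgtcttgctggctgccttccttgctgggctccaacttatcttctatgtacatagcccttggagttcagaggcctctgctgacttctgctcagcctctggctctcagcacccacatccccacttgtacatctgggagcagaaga
Pfkp, chr17:68639563-68639812, plus strand: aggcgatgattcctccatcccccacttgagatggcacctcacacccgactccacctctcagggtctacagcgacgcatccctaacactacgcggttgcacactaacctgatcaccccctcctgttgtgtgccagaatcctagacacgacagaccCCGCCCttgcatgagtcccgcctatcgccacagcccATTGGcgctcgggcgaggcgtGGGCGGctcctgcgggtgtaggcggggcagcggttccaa
Hk3, chr17:9604781-9605030, plus strand: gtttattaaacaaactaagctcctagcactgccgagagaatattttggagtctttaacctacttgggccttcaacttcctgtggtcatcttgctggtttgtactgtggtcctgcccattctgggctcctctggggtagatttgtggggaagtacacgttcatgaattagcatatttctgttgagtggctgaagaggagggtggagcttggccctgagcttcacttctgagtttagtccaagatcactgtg
TGACG stands in the windows of Gckr, from base -64 to -60, and Slc37a4, from base -20 to -16. It was in 9 of the 33 member promoters found in the table (27.3%) and in 18.2% of all 33469 promoters of the same length. The other members with TGACG did not pass. Of them, Pck1, Pfkfb2 and Ldha were below 0 on the log2 scale, and Tpi1, Eno1, Gapdh and Hk1 above 0. The window of Pfkp holds GGGCGG at 2 places, and that motif was in 45.5% of member promoters and 30.5% of all. CCAAT, found once each in Pfkfb1 and Pfkp, was in 30.3% of member promoters and 34% of all. CACGTG was in 3 member promoters, those of Pfkfb3, Ldha and Ppp1r3c (9.09%, against 5.59% of all). TGTTTAC was in that of Pfkfb2 (3.03%, against 3.21% of all), TGACNNNGC in those of Fbp1 and Khk (6.06%, against 10.1%) and GAGGAAGT in that of Fbp1 (3.03%, against 2.04%). Some TGACNNNGC matches can overlap TGACG. Those of Hk3 and Aldoa hold none of the 7 motifs, and a match is a description of letters and not of binding.

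Around the 36 genes, 120 others of glucose and glycogen metabolism were listed by pathway; the array held 111 of these and 101 were measured. By limma 3 were lower and none was higher, or 2.97% in either direction against 9.36% of all features. At an unadjusted p below 0.05 the counts were 19 lower and 7 higher of 101, against 12.2% lower and 15.4% higher of all features, and their median log2 fold change was -0.07. Klf15, a transcription factor that favours gluconeogenesis from amino acids, had signals of 20.6, 19.5 and 22.9 in treated livers, against 32.8, 31.9 and 26.9 in corn oil livers (log2 fold change -0.54, SE 0.12, adjusted p = 0.042). With spike-in scaling it stood at -0.05 and did not pass (adjusted p = 0.79). Stbd1, a glycogen-binding protein, had 12.2, 13.5 and 13.5 in treated livers, against 18.1, 18.2 and 16.8 in corn oil livers (log2 fold change -0.44, SE 0.09, adjusted p = 0.037), but 0.04 with spike-in scaling. Crtc2, the coactivator through which glucagon turns on gluconeogenic genes, had 2.57, 2.71 and 2.51 in treated livers, against 3.31, 3.27 and 3.37 in corn oil livers (log2 fold change -0.35, SE 0.08, adjusted p = 0.047), but 0.13 with spike-in scaling and -0.20 with its call ended as the mean over its probes (adjusted p = 0.18). None of these 3 calls held in a fit without 1 of the 6 animals (adjusted p from 0.053 to 0.14).

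Hormone receptors and fasting regulators fixed for the description did not pass. The glucagon receptor gene Gcgr was at 0.22 (SE 0.13), the insulin receptor gene Insr at -0.01 (SE 0.11) and Foxo1, the insulin-restrained transcription factor, at -0.40 (SE 0.17). Ppargc1a, a coactivator of the fasting response, had low signals of 0.107, 0.0565 and 0.0559 in treated livers, against 0.0534, 0.0447 and 0.0289 in corn oil livers (log2 fold change 0.76, SE 0.33, adjusted p = 0.20). Pdk4, the kinase that shuts pyruvate dehydrogenase in fasting, had 1.21, 1.31 and 0.844 in treated livers, against 0.972, 0.382 and 0.289 in corn oil livers. Corn oil replicate 1 lay among the treated animals (log2 fold change 1.22, SE 0.46). The gene did not pass (adjusted p = 0.15), but without that animal it stood at 1.73 and passed, as it did with spike-in scaling (adjusted p = 0.036 and 0.015). All 11 measured genes of pyruvate dehydrogenase and its regulators stood above 0 on the log2 scale (median 0.18), as did 14553 of all 28995 features. The groups overlapped for all 11, whereas 34.4% of all features did not overlap. On slide 1 alone Pdha1, Dld and Pdk1 stood below 0, at -0.07, -0.04 and -0.04. None of the 11 passed by limma, while 2 had an unadjusted p below 0.05, where 15.4% of all features were higher.

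**Figure D4:**
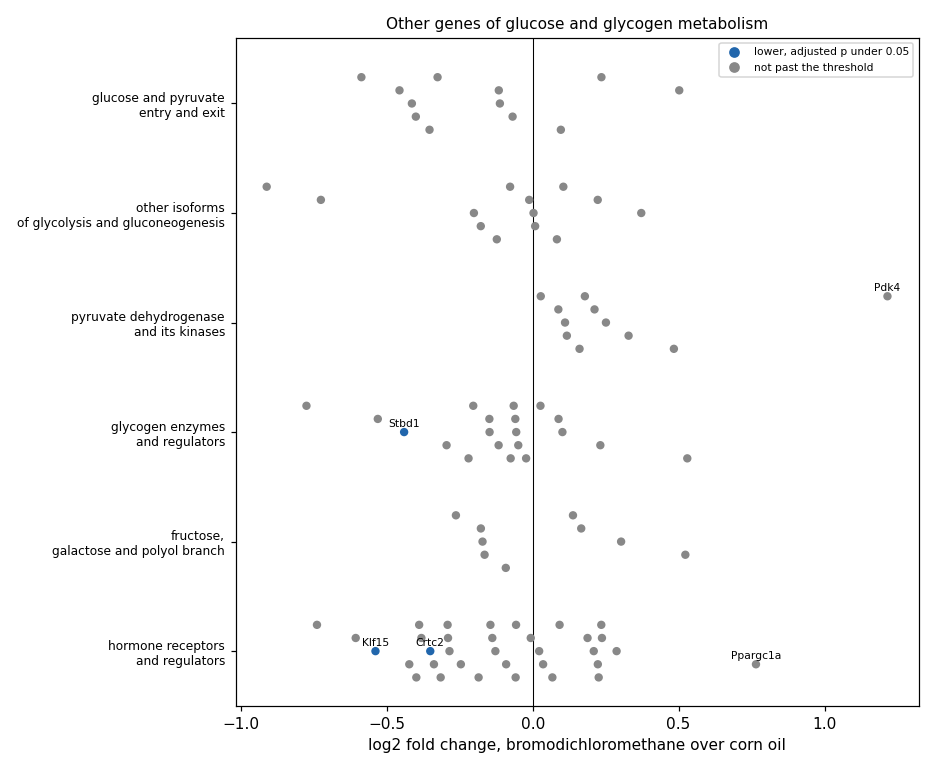
Log2 fold change, bromodichloromethane over corn oil, of 99 of the 101 measured genes of glucose and glycogen metabolism outside the 36, in 6 groups down the page (dots are spread vertically within a group for legibility). The 3 blue points, Stbd1, Klf15 and Crtc2, passed as lower, and Pdk4, the rightmost point at 1.22, did not pass.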

How the data were processed

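The submitters' processing notes name Agilent Feature Extraction 10.7 for the 6 rat liver arrays, 1 per animal. Scanner output deposited by the authors gives each spot's Cy3 intensity, from which that software had already subtracted background, per the file headers, with no scaling between arrays. The deposited value table holds a ratio: its values equal the processed intensity over the 75th percentile of the array (100% of values of at least 0.02 on all arrays lay within 1% of it on every array), and was an alternative only. Its scale and direction follow from that relation, and it is not centred.

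Of 61657 non-control probes, 27 carrying outlier flags were left out, and 27460 (44.5%) matched 1 symbol through unversioned RefSeq accessions. Processed intensities were taken to log2 minus the 75th percentile of each array. Probes had to be well above background on every array of 1 group or both, and the brightest kept probe stood for a gene. The test was that of limma 3.58.1 under R 4.3.3 (lmFit, eBayes, two-sided), which was tested on simulated data. The scanner files used here hold median spot signals, so normexp (offset 50) used those in place of mean signals. The common floor was -4.95 on the log2 scale.

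The 36 genes and all lists were chosen with earlier results of these data known. Every member past the threshold or with groups that do not overlap is named with its values, as are other pathway genes past the threshold and 5 fixed ones; 2 further fixed genes count in the totals and are not reported here. Labels describe separate animals, and with 3 against 3 an exact permutation test cannot go below 0.10. The number of arrays limits the precision. Alternatives covered background, scaling, filter, probes, floor, moderation, slide, replicate number and each animal left out.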

Additional observations from a re-analysis of the deposited data

How the results depend on the processing

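Directions of the 7 genes past the threshold were kept under all alternatives except Slc37a4 with spike-in scaling. Counts moved more. Spike-in scaling called 12784 features (44.1%), 15 members higher and 1 lower (median log2 fold change 0.39) and 35 other pathway genes higher and 0 lower. Without the filter on dim probes 609 features (1.33%) passed, with 0 members in either direction and 0 other pathway genes lower. Slide as a fixed block gave 350 features and slide 1 alone 120, with 0 members and 0 other pathway genes lower in both, and a random slide block gave 2 members lower. By limma at an unadjusted p below 0.05, 6 members were higher and 6 lower on slide 1 alone (10.3% and 7.68% of all features). Median centring gave 5 members higher and 2 lower, and 1 other gene higher and 2 lower (10.2% of all features called). Normexp gave 5 members higher and 6 lower, and 1 other gene higher and 4 lower (11.2%). The stricter filter gave 5 members higher and 4 lower, and 1 other gene higher and 3 lower (10.4%). The common floor gave 4 members higher and 4 lower, and 1 other gene higher and 3 lower (10.1%). With the trend and robust options 4 members were higher and 5 lower, and 1 other gene higher and 8 lower (11.8%). Quantile normalization gave 3 members higher and 4 lower, and 0 other genes higher and 5 lower (9.36%). The replicate numbers do not pair the animals by the labels. Deviations of same-numbered animals from their group means correlated at 0.092, 0.019 and 0.12, and every animal correlated best with its own number. With 3 animals a group these correlations are tied to each other, so they cannot decide whether animals were paired. With replicate number as a block 353 features (1.22%) passed by limma, with 0 members higher and 0 lower. In that fit 7 members were higher and 10 lower at an unadjusted p below 0.05 by limma, against 14.6% and 11.2% of all features. Leaving out 1 animal gave 335 to 1232 features, 0 to 2 members higher, 0 to 2 lower, and 0 to 1 other genes higher and 0 to 2 lower. The causes were not tested.

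Genes whose direction turned did not pass afterwards. With spike-in scaling these were Pck1 (0.12), Slc37a4 (0.051), Fbp1 (0.27), Pfkfb2 (0.15), Pfkm (0.087), Pklr (0.19), Gpi (0.44), Ldha (0.24), Khk (0.34), Slc2a1 (0.32), Slc2a2 (0.45), Gys2 (0.11), Pygl (0.035), Ugp2 (0.28), Pcx (0.33), Mlxipl (0.090), Stbd1 (0.044), Crtc2 (0.13), Insr (0.48) and Foxo1 (0.086). With normexp they were Pfkfb3 (-0.0026), Slc2a2 (0.084) and Insr (0.066), with quantile normalization Fbp1 (0.095) and Insr (0.00941), and with median centring Gpi (0.010), Slc2a2 (0.020) and Insr (0.050). On slide 1, as with slide as a block, G6pc1 stood at -0.22, Pfkl at -0.0062, Slc2a1 at 0.50 and Slc2a2 at 0.011. With 1 animal left out, the ranges that crossed 0 were G6pc1 -0.13 to 0.59, Pfkfb3 -0.040 to 0.054, Gpi -0.14 to 0.065, Slc2a1 -0.49 to 0.018, Slc2a2 -0.12 to 0.030, Ugp2 -0.32 to 0.0097 and Insr -0.10 to 0.062.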
